A study of Mus musculus with 6 samples.

Results

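The apolipoprotein L (Apol) genes of the mouse lie in a cluster on chromosome 15, and 9 of them were taken from the deposited spleen table by their gene symbols: Apol6, Apol7c, Apol8, Apol9a, Apol9b, Apol10a, Apol10b, Apol11a and Apol11b. They are 9 of the 26452 genes of the table. The 9 genes were chosen on the same knockout against wild-type comparison, as a cluster that was higher in knockout spleens. Their differences between genotypes are therefore given as a description, with no test. Spleens came from 3 Was knockout mice (Was -/-, strain 129S6/SvEvTac-Wastm1Sbs/J) and 3 wild-type mice (129S6/SvEvTac), all males aged 10 weeks. The labels give each library a number of its own and state no pooling of animals. Was encodes the Wiskott-Aldrich syndrome protein, which drives actin assembly in blood cells and is lost in Wiskott-Aldrich syndrome. The targeted allele is present in every cell of the knockout animals, and the sources used here do not give which part of the gene it alters. The libraries carry the names KO451, KO452 and KO457 for knockout, and WT453, WT454 and WT455 for wild type.

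Apolipoprotein L proteins carry lipid-binding helices. The founding human member is carried in blood on lipoprotein particles and kills trypanosomes, whereas the other members lack a signal for secretion and sit on membranes inside cells. Many members are switched on by interferons, and in the mouse Apol6, Apol9a and Apol9b are known for this. Mouse Apol7c is known from dendritic cells, where it takes part in the presentation of antigen from engulfed cells. The mouse spleen holds B and T cell zones, dendritic cells, red pulp macrophages and, throughout life, developing red cells, so that RNA of the whole organ mixes all of them.

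The promoters of 8 of the 9 genes, from 250 bases before to 50 bases after the annotated start, were found in the RefSeq table for GRCm38.p6, which holds the reference strain and not 129S6/SvEvTac. They were searched on both strands for 4 short letter patterns. These were the GATA pattern (NGATAN, with A or T first and A or G last), the KLF pattern (CCNCNCCC), the core of the interferon-stimulated response element, or ISRE (GAAANNGAAA), and the interferon gamma activated site, or GAS (TTCNNNGAA). The 6 promoters printed below stand for the genes with the largest difference between genotypes and for relatives with little difference, in the direction of transcription, with matches on either strand in capitals.
Apol11b, chr15:77643237-77643536, minus strand
Apol11b: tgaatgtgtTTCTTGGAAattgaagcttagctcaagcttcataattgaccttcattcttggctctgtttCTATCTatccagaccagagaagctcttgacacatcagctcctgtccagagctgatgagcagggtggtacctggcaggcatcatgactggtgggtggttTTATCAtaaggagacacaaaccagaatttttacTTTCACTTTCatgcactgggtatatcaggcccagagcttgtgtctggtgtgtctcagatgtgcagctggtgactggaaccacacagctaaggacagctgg
Apol11a, chr15:77508019-77508318, plus strand
Apol11a: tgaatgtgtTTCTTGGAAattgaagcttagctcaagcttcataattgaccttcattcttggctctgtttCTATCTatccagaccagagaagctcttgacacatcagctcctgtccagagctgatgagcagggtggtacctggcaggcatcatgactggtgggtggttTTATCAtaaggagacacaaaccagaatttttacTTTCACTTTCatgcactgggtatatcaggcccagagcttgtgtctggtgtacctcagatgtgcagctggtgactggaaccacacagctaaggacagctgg
Apol10a, chr15:77476797-77477096, plus strand
Apol10a: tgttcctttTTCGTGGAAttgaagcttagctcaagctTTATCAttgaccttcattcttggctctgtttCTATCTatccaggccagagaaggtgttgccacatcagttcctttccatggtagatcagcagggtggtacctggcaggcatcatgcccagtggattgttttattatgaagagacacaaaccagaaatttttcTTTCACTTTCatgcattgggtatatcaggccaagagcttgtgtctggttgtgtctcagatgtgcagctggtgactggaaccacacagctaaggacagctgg
Apol10b, chr15:77596076-77596375, minus strand
Apol10b: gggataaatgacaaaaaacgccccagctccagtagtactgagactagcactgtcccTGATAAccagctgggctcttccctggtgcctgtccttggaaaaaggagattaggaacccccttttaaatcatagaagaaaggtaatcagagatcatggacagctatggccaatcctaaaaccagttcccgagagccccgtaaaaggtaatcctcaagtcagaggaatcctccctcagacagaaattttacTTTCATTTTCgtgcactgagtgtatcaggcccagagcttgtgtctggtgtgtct
Apol8, chr15:77756961-77757260, minus strand
Apol8: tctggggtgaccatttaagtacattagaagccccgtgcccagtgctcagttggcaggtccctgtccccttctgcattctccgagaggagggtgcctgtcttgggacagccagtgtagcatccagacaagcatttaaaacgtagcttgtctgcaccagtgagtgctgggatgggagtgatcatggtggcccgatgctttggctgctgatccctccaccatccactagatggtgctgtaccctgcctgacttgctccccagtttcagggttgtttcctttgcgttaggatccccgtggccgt
Apol7c, chr15:77533266-77533565, minus strand
Apol7c: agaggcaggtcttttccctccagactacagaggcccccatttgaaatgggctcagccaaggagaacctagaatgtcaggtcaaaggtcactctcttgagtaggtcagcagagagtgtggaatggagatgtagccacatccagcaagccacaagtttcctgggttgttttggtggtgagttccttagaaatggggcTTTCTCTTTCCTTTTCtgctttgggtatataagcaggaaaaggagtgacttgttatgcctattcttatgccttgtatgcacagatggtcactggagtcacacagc

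The Apol11a and Apol11b promoters were nearly the same sequence, with 298 of 300 bases identical (99.3%). The Apol10a promoter had 268 identical bases over 301 aligned columns with that of Apol11b, and 266 with that of Apol11a. The Apol9a and Apol9b promoters had 278 identical bases over 322 aligned columns (86.3%). Their windows are offset, with the KLF match at -211 in Apol9a and -189 in Apol9b. All aligned bases of this pair were identical, and the other columns were gaps. Every other pair, including Apol10b with Apol10a (44.3%), was at or below 54.1%. The Apol10b window matched those of Apol10a and the Apol11 genes over 44.3% to 45.8% of aligned columns. Windows are set on annotated starts, and the ISRE core begins at -4 in Apol10b, -51 in Apol10a and -50 in the Apol11 genes. The last bases of the Apol10b window, from that core on, nearly repeat those of Apol11b. The percentages thus depend on where the starts are annotated. The longest transcript of Apol10b matched those of Apol10a and the Apol11 genes over 59.1% to 66.2% of aligned columns. The longest transcripts of Apol11a and Apol11b matched over 76.7%.

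The ISRE core was present in 7 of the 8 promoters, all except that of Apol8, against 3.44% of the 32851 promoters in the table. Counted from the annotated start, it begins at position -50 in Apol11a and Apol11b and at -51 in Apol10a. Apol7c, Apol9a and Apol9b each hold 2 matches that overlap each other, in Apol7c at -55 and -49. The match of Apol10b begins at -4 and was lost when only the 250 bases before the start were searched, which left 6 of 8 promoters against 2.98% of all. The GAS pattern was found in Apol10a, Apol11a and Apol11b, 3 of 8 promoters against 8.3% of all, in each case at position -241. The GATA pattern was found in Apol10a, Apol10b, Apol11a and Apol11b, 4 of 8 promoters against 29.8% of all. The KLF pattern was found in Apol9a and Apol9b, 2 of 8 against 49.5% of all. No match to any of the 4 patterns was found in the Apol8 window. Promoters that are alike in sequence share their matches, and a match describes letters and not a bound site.

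Between 30661759 and 38402758 reads per library were assigned to genes. A count of 0 allows up to 3 reads, which is 0.0781 to 0.0978 CPM (reads scaled to the assigned total of the library). This floor covers counting error alone. Was, the targeted gene, had 12.4 ± 1.24 CPM in knockout spleens, against 177 ± 45.8 CPM in wild-type spleens (SD, n = 3 each), a log2 difference of -3.66 with a standard error (SE) of 0.25 (limma, Benjamini-Hochberg adjusted p = 0.0117). That call was lost when any library other than WT453 was left out, with adjusted p up to 0.351, while the log2 difference stayed between -3.76 and -3.53. Limma called 2 of 22081 tested genes, or 0.00906%, and 2420 had an unadjusted p under 0.05. Libraries stood apart in both groups. The summed neutrophil markers were at 94351 CPM in WT453, against 5411 to 58205 CPM in the other libraries, and the summed red cell markers were at 15289 CPM in KO451, against 906 to 4719 CPM in the others. B cell markers, which define much of the spleen, were read in every library, with sums of 1610 to 3425 CPM in knockout spleens and 1613 to 5844 CPM in wild-type spleens.

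Of the 9 genes, Apol11b, Apol8, Apol11a and Apol10a were several-fold higher in knockout spleens, with no overlap between the groups, and Apol9a was higher by a smaller amount at a handful of reads. Apol9b, Apol10b and Apol7c overlapped between the groups, and Apol6 had reads in a single library. The mean of the deposited log2 values was higher in knockout for 8 genes and lower for 1, Apol7c, and the median difference over the 9 was 1.39, against -0.03 over all tested genes. All 3 knockout libraries lay above all 3 wild-type libraries for 5 of the 9 genes, against 9.54% of all tested genes, and below them for 0 of the 9, against 9.93%. The authors' deposited table lists 4 of the 9 with an FDR under 0.05, namely Apol8, Apol10a, Apol11a and Apol11b, against 2.14% of its genes listed as higher in knockout. Since the 9 were chosen on this contrast, nothing further is read from those counts. All 9 passed the filter of a mean normalized count of 1, Apol6 only through KO452 and Apol10a only through the knockout libraries. In RNA of a whole organ, more cells of a type and more RNA per cell cannot be told apart.

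**Figure D1:**
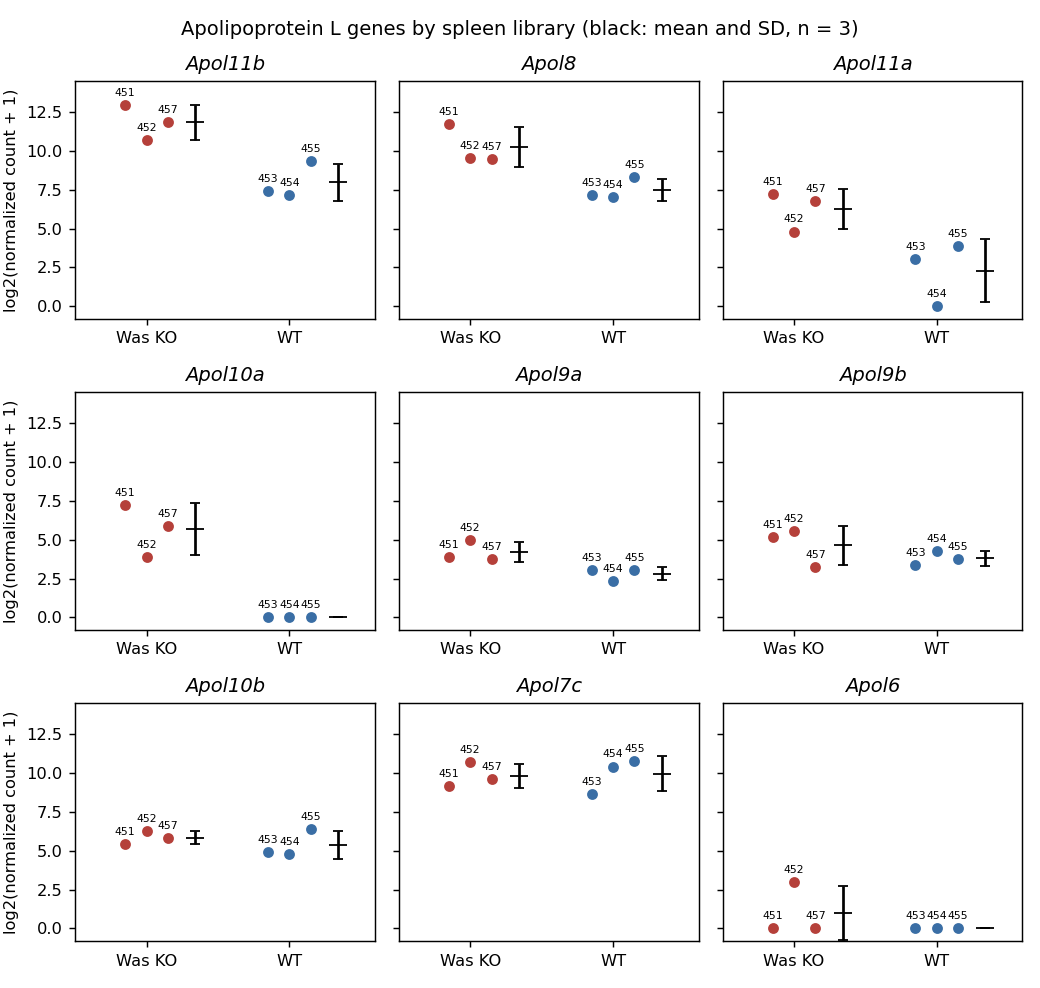
Deposited log2(normalized count + 1) of each of the 9 apolipoprotein L genes, with a point per library (Was KO in red on the left, WT in blue on the right, numbers giving the library) and a black bar for the mean and SD of 3 libraries. The groups are apart for Apol11b, Apol8, Apol11a, Apol10a and Apol9a and overlap for the other 4 genes.

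Apol11b (ENSMUSG00000091694, chr15:77633946-77643286, minus strand) was the most abundant of the 9 genes in knockout spleens. Its deposited log2 normalized count (reads divided by the library's size factor, plus 1) was 12.96 in KO451, 10.69 in KO452 and 11.84 in KO457, against 7.39 in WT453, 7.18 in WT454 and 9.34 in WT455. In whole reads these were 7432, 1652 and 3531 in knockout, against 162, 177 and 621 in wild-type libraries. The lowest knockout spleen, KO452, thus lay above the highest wild-type spleen, WT455, and each group held a library well above its other members, KO451 and WT455. Knockout spleens averaged 122 ± 84.7 CPM and wild-type spleens 9.96 ± 8.91 CPM (SD, n = 3 each), a ratio of 12.2, which was 7.55 without KO451 and 25.3 without WT455. The log2 difference was 3.86 (SE 0.73), and it was 3.30 without KO451 and 4.54 without WT455.

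Apol11a (ENSMUSG00000091650, chr15:77508271-77518051, plus strand), whose promoter is nearly that of Apol11b, had far fewer reads. There were 137 reads in KO451, 27 in KO452 and 106 in KO457, against 7 in WT453, 0 in WT454 and 13 in WT455. The ranking of the knockout libraries was that of Apol11b, and the lowest of them, KO452, lay above the highest wild-type library, WT455. The knockout mean was 2.60 ± 1.62 CPM and the wild-type mean 0.214 ± 0.212 CPM (SD, n = 3 each), also a ratio of 12.2, which was 8.11 without WT454 and 23.9 without WT455. The log2 difference was 3.97 (SE 1.12), and it was 2.82 without WT454, the library with no read, 4.75 without WT455 and 4.70 without KO452. Of the 50-base stretches of its transcripts, 15.3% also occur in Apol11b, which had many times more reads, so reads of Apol11b can be counted to Apol11a and the value is uncertain.

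Apol10a (ENSMUSG00000050982, chr15:77477047-77491069, plus strand) had 137 reads in KO451, 14 in KO452 and 57 in KO457, and 0 reads in each of the 3 wild-type libraries. It was read in every knockout spleen and in no wild-type spleen at this depth. The knockout mean of 2.004 ± 1.801 CPM (SD, n = 3) was at least 22.4-fold higher than the mean wild-type floor of 3 reads per library. Without KO451 this bound was 11.4-fold. Of its 50-base stretches, 16.9% also occur in another gene, most often in the neighbouring pseudogene Apol10c-ps and next in Apol11b, which had many times more reads, so the value of Apol10a is uncertain.

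Apol8 (ENSMUSG00000056656, chr15:77747798-77757003, minus strand) closes the cluster on its right side. Its annotated transcripts share no exact 50-base stretch with another gene. Stretches that match with differences were not searched. Its log2 normalized count was 11.72 in KO451, 9.52 in KO452 and 9.48 in KO457, against 7.14 in WT453, 7.01 in WT454 and 8.29 in WT455. KO452 and KO457 were alike, KO451 was far above them, and WT455 was the highest wild-type library, again below all knockout libraries. The means were 44.3 ± 40.8 CPM for knockout and 6.04 ± 3.27 CPM for wild-type spleens (SD, n = 3 each), a ratio of 7.33, which was 3.43 without KO451. The log2 difference was 2.76 (SE 0.66), and without KO451 it was 2.01.

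Apol10b (ENSMUSG00000050014, chr15:77583819-77596125, minus strand), a relative of Apol10a, overlapped between the groups. It had 40, 77 and 53 reads in KO451, KO452 and KO457, against 28, 33 and 80 reads in WT453, WT454 and WT455. The highest library of all was the wild-type WT455, and the log2 difference was 0.48 (SE 0.55). Without WT455 the groups did not overlap and the log2 difference was 1, and without WT454 it was 0.20. The means were 1.66 ± 0.589 CPM for knockout and 1.45 ± 1.01 CPM for wild-type spleens (SD, n = 3 each).

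The 3 members known to respond to interferon had few reads in every library. Apol9a (ENSMUSG00000057346, chr15:77403789-77411135, minus strand) had 13, 30 and 12 reads in KO451, KO452 and KO457, against 7, 5 and 7 in WT453, WT454 and WT455, with a log2 difference of 1.39 (SE 0.59). Apol9b (ENSMUSG00000068246, chr15:77729039-77736382, plus strand) had 33, 46 and 8 reads in the knockout libraries, against 9, 23 and 12 reads in the wild-type libraries in the same order. The Apol9a groups did not overlap, whereas for Apol9b the knockout KO457 was the lowest library of all. The log2 difference of Apol9b was 0.85 (SE 0.73), and without KO457 it was 1.56. Of the 50-base stretches of Apol9b, 52.3% also occur in Apol9a, so the split of reads between these genes is uncertain. Apol6 (ENSMUSG00000033576, chr15:77044729-77057106, plus strand) had 7 reads in KO452 and 0 reads in each of the other 5 libraries, which allows no comparison. Its model overlaps that of Mb, the myoglobin gene, on the other strand, and the sources used here do not give the strand setting of the counts.

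Apol7c (ENSMUSG00000044309, chr15:77524852-77533316, minus strand), the dendritic cell member, was the gene with the highest level in wild-type spleens and the only one of the 9 whose mean log2 value was lower in knockout. Its log2 normalized count was 9.16 in KO451, 10.70 in KO452 and 9.64 in KO457, against 8.69 in WT453, 10.43 in WT454 and 10.78 in WT455. The groups overlapped throughout, with the lowest and the highest library both wild-type. It averaged 29.0 ± 18.3 CPM in knockout spleens, against 37.2 ± 22.2 CPM in wild-type spleens (SD, n = 3 each). The log2 difference was -0.13 (SE 0.61), and without WT453 it was -0.77. Of its 50-base stretches, 25.6% also occur elsewhere, in the pseudogene Gm8221 and in Apol7a and Apol7e.

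Levels were compared between genes as CPM per kilobase of annotated exon (RPKM). In knockout spleens Apol11b came first with a mean level of 49.5 RPKM (20.1 to 87.3), followed by Apol8 with 14.9 (6.61 to 30.8) and Apol7c with 14.1 (7.50 to 24.2). Their ranges over the 3 libraries overlapped each other. Apol11a with 1.40 RPKM (0.434 to 2.13) lay below all of these, and its range overlapped those of Apol10b with 0.714, Apol10a with 0.661 and Apol9b with 0.469 RPKM. Apol9a with 0.0906 RPKM (0.0576 to 0.151) reached into the range of Apol9b (0.126 to 0.757), and Apol6 with 0.0156 RPKM was last. In wild-type spleens Apol7c came first with a mean level of 18.1 RPKM (6.02 to 26.8), and Apol11b with 4.05 (1.87 to 8.22) and Apol8 with 2.04 RPKM (1.38 to 3.31) followed, each range overlapping the next. Apol10b with 0.622 RPKM (0.370 to 1.12) lay below Apol8 and above Apol9b with 0.232 RPKM (0.153 to 0.329). Apol11a with 0.115 RPKM (0 to 0.2275) had a lower mean, and its range overlapped that of Apol9b. It also overlapped that of Apol9a with 0.0322 RPKM, and Apol10a and Apol6 were at 0 reads.

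Summed over the 9 genes there were 11482, 4245 and 5218 reads in KO451, KO452 and KO457, against 749, 2088 and 2724 in WT453, WT454 and WT455. Apol11b made up 64.7%, 38.9% and 67.7% of these reads in the knockout libraries, against 21.6%, 8.48% and 22.8% in the wild-type libraries in the same order. Apol7c made up 4.65%, 39.1% and 14.7% in the knockout libraries, against 53.4%, 81.1% and 62.0% in the wild-type libraries. Apol7c was thus the largest part of the family's reads in every wild-type spleen, and Apol11b was the largest in KO451 and KO457, with both genes at nearly the same share in KO452. The share of Apol8 overlapped between the groups, at 13.1% to 27.5% in knockout and 7.52% to 18.2% in wild-type spleens.

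**Figure D2:**
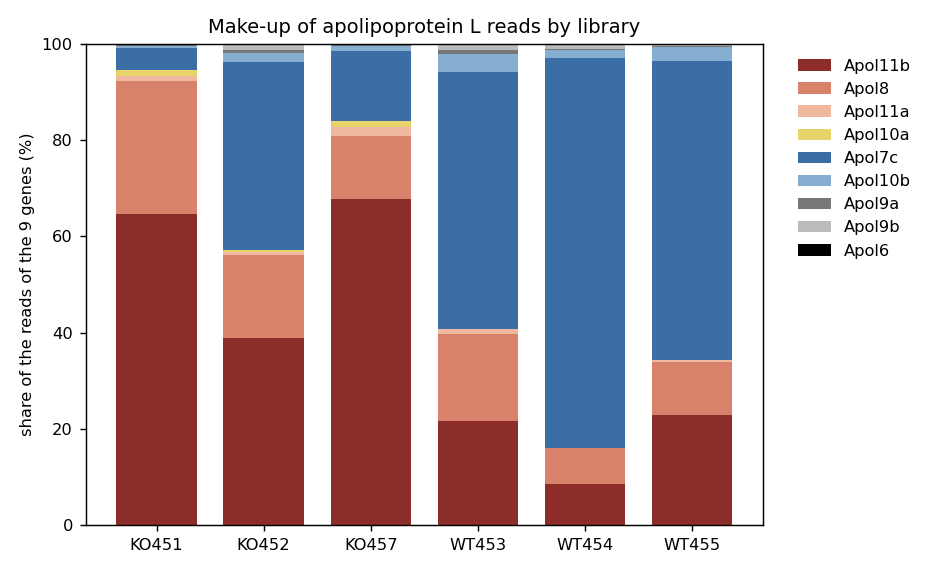
Share of each gene, in percent, in the reads of the 9 apolipoprotein L genes, with a bar per library and the 3 Was KO libraries on the left of the 3 WT libraries. Apol11b (dark red) takes 38.9% to 67.7% of a knockout bar and 8.48% to 22.8% of a wild-type bar, and Apol7c (dark blue) takes 4.65% to 39.1% and 53.4% to 81.1%.

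The 9 genes span 712 kb, from 77044729 to 77757003 on chromosome 15 of GRCm38, in the order Apol6, Apol9a, Apol10a, Apol11a, Apol7c, Apol10b, Apol11b, Apol9b and Apol8. Genes with a large difference stood next to genes without one. Apol7c, between Apol11a and Apol10b, overlapped between the groups, as did Apol9b beside Apol8. Further apolipoprotein L genes lie among them. The pseudogene Apol10c-ps (chr15:77656001-77659841, minus strand), which has no symbol in the deposited table and was matched by its identifier, had 231, 39 and 83 reads in KO451, KO452 and KO457, against 0, 5 and 19 in WT453, WT454 and WT455. Its groups did not overlap, its log2 difference was 4.34 (SE 1.18, limma, Benjamini-Hochberg adjusted p = 0.344), and its sequence is partly that of Apol10a. Apol7e, a close relative of Apol7c, had 194, 445 and 248 reads in the knockout libraries, against 368, 913 and 678 reads in the wild-type libraries, which overlapped. Its log2 difference was -1.02 (SE 0.39, limma, Benjamini-Hochberg adjusted p = 0.424). Apol7b had 0 reads in KO452 and WT453 and between 51 and 272 reads in the others, so that no direction can be given (log2 difference -1.18, SE 2.47, limma, Benjamini-Hochberg adjusted p = 0.898). Outside the cluster, Apold1, an apolipoprotein L domain gene of endothelium on chromosome 6, had a log2 difference of 1.36 (SE 0.70, limma, Benjamini-Hochberg adjusted p = 0.516). Apol7d, annotated as an antisense gene on chromosome 1, had at most 3 reads in a library.

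**Figure D3:**
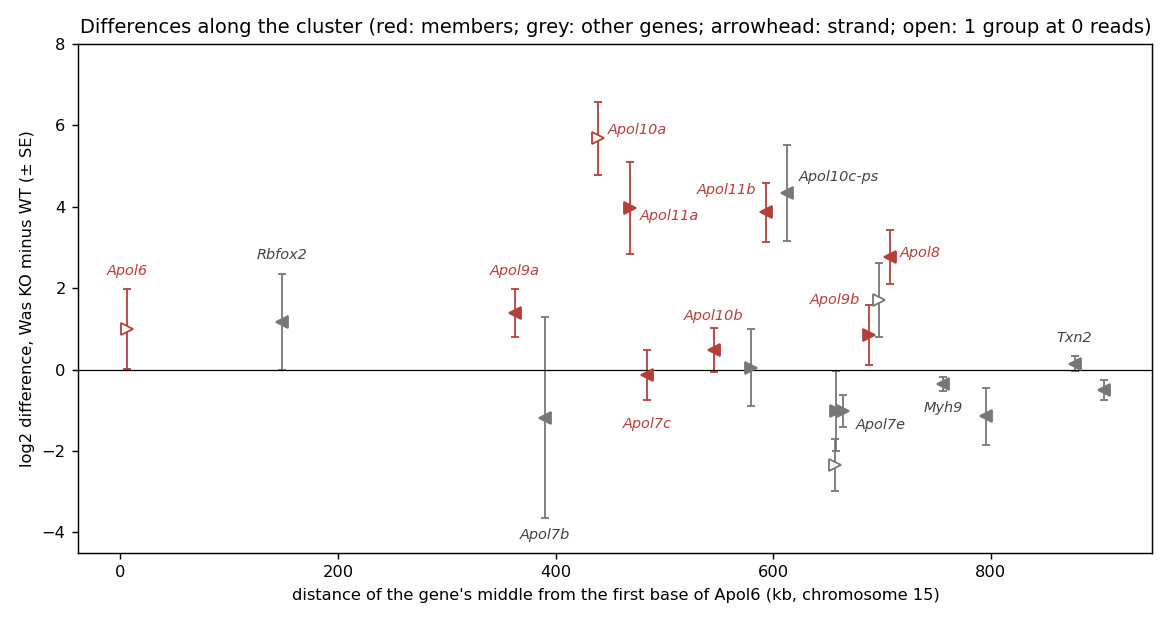
Log2 difference, Was KO minus WT, with its standard error (bars) of each tested gene along the cluster, against the distance of the gene's middle from the first base of Apol6 in kb. Arrowheads give the strand, members are red and other genes grey, and open symbols have 1 group at 0 reads, so that their fitted value depends on the pseudocount. Apol10a, Apol11a, Apol11b, Apol10c-ps and Apol8 stand above 2. Among the apolipoprotein L genes between them, Apol7c, Apol10b and Apol7e are near or below 0.5 and Apol9b is at 0.85.

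Outside the 9 members, 18 genes of the interval from 76899910 to 77970813 were tested, the stretch from 4 named protein-coding genes on one side to 4 on the other. Of these, 7 had a higher and 11 a lower mean in knockout, with a median log2 difference of -0.42. Limma called 0 of the 18, and 3 had an unadjusted p under 0.05. All knockout libraries lay above all wild-type libraries for 1 of the 18, Apol10c-ps, against 9.54% of all tested genes, and below them for 3 of the 18, against 9.93%. Beyond the right end, Myh9, the heavy chain of non-muscle myosin IIA, had a log2 difference of -0.35 (SE 0.18, limma, adjusted p = 0.526), and Txn2, mitochondrial thioredoxin, one of 0.15 (SE 0.18, limma, adjusted p = 0.781). On the left, Zfp647, a zinc finger gene, had -0.62 (SE 0.58, limma, adjusted p = 0.722) and Rpl8, a ribosomal protein gene, 0.16 (SE 0.31, limma, adjusted p = 0.884), with a value of -0.17 when WT453 was left out and -0.09 after quantile normalization.

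Across the 6 libraries, Apol11b, Apol8, Apol10a and Apol11a were highest in KO451 and, apart from Apol10a with its wild-type zeros, had their highest wild-type value in WT455. Apol7c was low in KO451 and WT453 and high in KO452, WT454 and WT455. To describe likeness, each log2 profile was standardised over the 6 libraries and the root mean square distance between profiles was taken, where 0 is the same shape. Apol8 was 0.27 from Apol11b and 1.52 from Apol7c, and Apol10a and Apol11a were 0.32 and 0.36 from Apol11b. The profile of Apol8 was 0.09 from the mean profile of the red cell marker list, and those of Apol11b, Apol10a and Apol11a were 0.21, 0.33 and 0.49 from it. Apol7c was 0.41 from the conventional dendritic cell list, 0.40 from the type I interferon list, 0.48 from the B cell list and 1.52 from the red cell list. The distances rest on 6 libraries that share the genotype difference, and they say nothing of shared function.

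**Figure D4:**
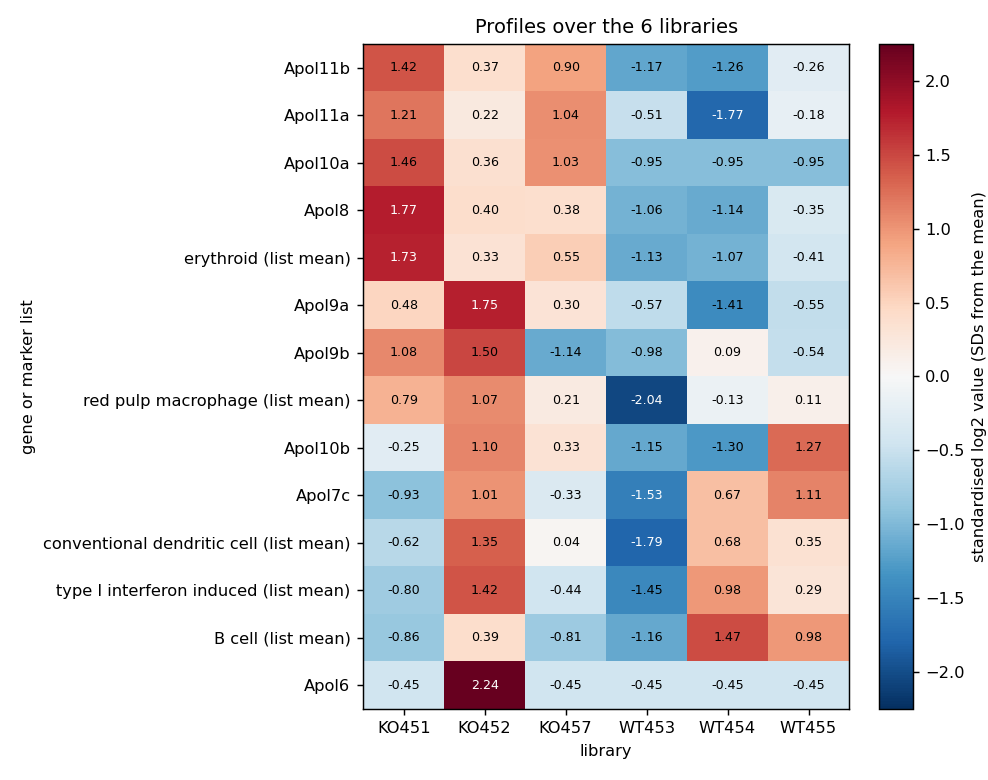
Standardised log2 values (in SDs from the mean of the row) over the 6 libraries for each of the 9 genes and for the mean of 5 marker lists, with the 3 KO columns on the left of the 3 WT columns. Apol11b, Apol11a, Apol10a and Apol8 share a shape with the red cell list, with the top value in KO451, and Apol7c is low in KO451 and WT453, as are the dendritic cell, type I interferon and B cell lists.

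The genes nearest to Apol11b in profile, among 11545 genes, were Slc25a21, a mitochondrial carrier (distance 0.075), Psmd6, a proteasome subunit (0.097), Tmem107 (0.099), Epdr1 (0.099) and Car1, a red cell carbonic anhydrase (0.1). Standardised profiles leave out the size of a change. The log2 differences of these genes were 2.09, 0.31, 0.92, 1.55 and 1.39 in that order, against 3.86 for Apol11b. Slc25a21 had log2 values of 10.64, 9.11 and 9.83 in KO451, KO452 and KO457, against 7.51, 7.30 and 8.51 in WT453, WT454 and WT455, so that its groups did not overlap either. Among the nearest to the mean profile of the members were Camk1 (0.124), Timm23 (0.164), Ispd (0.174) and Mrap (0.183).

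Red cell markers were higher in the same spleens as these 4 genes. All 24 tested genes of that list had a higher mean in knockout, with no overlap between the groups for any of them, against 9.54% of all tested genes, and none was at 0 in every library. The list's median log2 difference was 2.5, and 1.89 without KO451. Limma called 0 of the 24, and 24 had an unadjusted p under 0.05. The summed list ranged from 4074 to 15289 CPM in knockout spleens and from 906 to 2027 CPM in wild-type spleens. Among its most abundant genes, Slc4a1, the anion exchanger of the red cell membrane, had a log2 difference of 3.11 (SE 0.73), Car2, a carbonic anhydrase, 2.73 (SE 0.50), and Alas2, which starts haem synthesis in red cells, 3.11 (SE 0.89).

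Set against the red cell markers, the members differed in whether their groups overlapped. Apol8 had 5.97, 5.38 and 4.15 reads per 1000 red cell marker reads in KO451, KO452 and KO457, against 4.66, 3.79 and 4.84 in WT453, WT454 and WT455, which overlapped. Apol11b had 14.1, 12.2 and 21.4 reads per 1000 red cell marker reads in the knockout libraries, against 5.55, 4.28 and 9.99 in the wild-type libraries. Per 1000 red cell marker reads, then, Apol8 averaged 5.17 ± 0.931 in knockout and 4.43 ± 0.560 in wild-type spleens (SD, n = 3 each), a difference within the spread of the libraries. The Apol11b groups did not overlap on that scale. Apol11b was chosen on its difference, and the share of other genes without overlap on that scale was not counted. Whether Apol11b differs from red cell genes on that scale was not tested. Apol11a had 0.199 to 0.642 in knockout and 0 to 0.240 in wild-type libraries, which overlapped. Apol10a had 0.103 to 0.345 reads per 1000 red cell marker reads in knockout libraries, whereas 0 reads in the wild-type libraries allow up to 0.103 in WT453, 0.0725 in WT454 and 0.0483 in WT455. The lowest knockout value of Apol10a was the same as the highest of these limits to 3 digits, so no separation of its groups is given on that scale. These ratios are a description, and the part of red cell precursors in the members' differences was not tested.

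**Figure D5:**
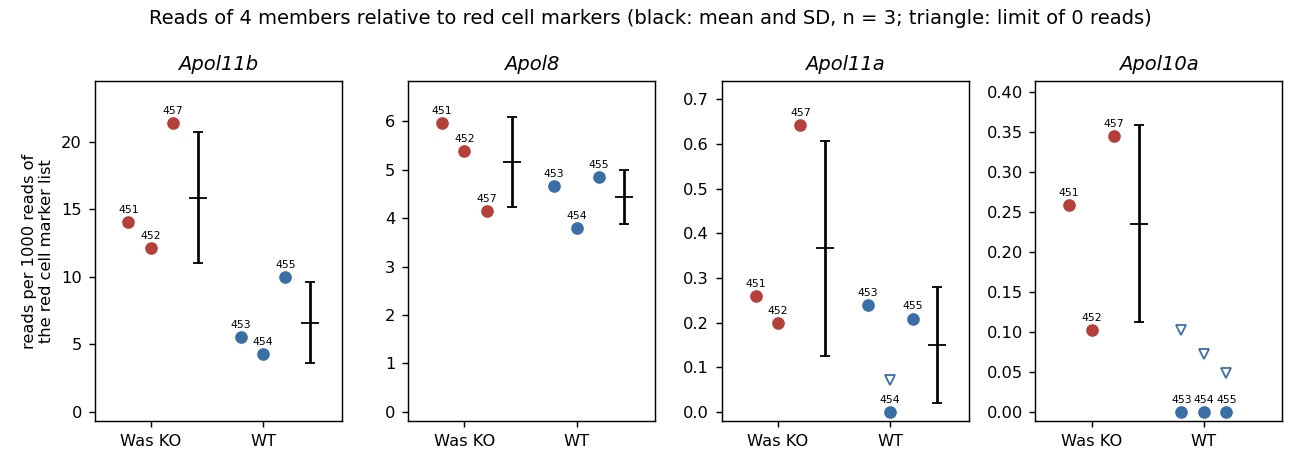
Reads of Apol11b, Apol8, Apol11a and Apol10a per 1000 reads of the red cell marker list, with a point per library (Was KO in red on the left, WT in blue on the right) a black bar for the mean and SD of 3 libraries, and an open triangle for the limit that 3 reads give where a library has 0. The Apol11b groups are apart, Apol8 and Apol11a overlap, with Apol8 between 3.79 and 5.97 in all 6 libraries, and the wild-type limits of Apol10a reach its lowest knockout value.

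Genes induced by interferon lay on both sides of 0. Of 30 genes known to be induced by type I interferon, 17 had a higher and 13 a lower mean in knockout, with a median log2 difference of 0.08, against -0.03 over all tested genes. That median was -0.36 without WT453, -0.28 without KO452 and -0.07 with scaling by total reads, so it gives no direction. Limma called 0 of the 30, and 2 had an unadjusted p under 0.05. Their summed level was 1614 to 2450 CPM in knockout spleens and 1491 to 2301 CPM in wild-type spleens. Among the most abundant, Ifitm3, an antiviral membrane protein, had a log2 difference of -0.25 (SE 0.44), and Parp14 one of -0.11 (SE 0.38). The sign of both turned when single libraries were left out.

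Of 20 genes known to be induced by interferon gamma, 6 had a higher and 14 a lower mean in knockout, with a median log2 difference of -0.19. The median was -0.57 without WT453 and 0.14 without KO451, and so gives no direction either. Limma called 0 of the 20, and 0 had an unadjusted p under 0.05. The most abundant were Irf8 (log2 difference -0.29, SE 0.46), a regulator of dendritic cells and monocytes, Ciita (-0.28, SE 0.59), which switches on MHC class II genes, and Irf1 (0.30, SE 0.71), and the sign of each turned when single libraries were left out. Of 8 tested interferon ligands and receptors, 2 had a higher and 6 a lower mean, with a median of -0.38, limma called 0, and 1 had an unadjusted p under 0.05. All knockout libraries lay below all wild-type libraries for 4 of these 8, against 9.93% of all tested genes, and above them for 0. The receptor chains Ifngr1 (log2 difference -0.46, SE 0.17) and Ifngr2 (-0.37, SE 0.23) were among the 4, and Jak1, the kinase both receptor types share, was at 0.09 (SE 0.50).

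Dendritic cell markers, the setting in which Apol7c is known, were split evenly. Of 18 conventional dendritic cell markers, 9 had a higher and 9 a lower mean in knockout, with a median log2 difference of -0.01 and a summed level of 711 to 1083 CPM in knockout spleens and 620 to 1174 CPM in wild-type spleens. Limma called 0 of the 18, and 4 had an unadjusted p under 0.05. The most abundant were Wdfy4, needed for cross-presentation (log2 difference -0.21, SE 0.30), Sirpa (0.93, SE 0.35) and Ccr7, the homing receptor of mature dendritic cells (-0.78, SE 0.53). Apol7c had 21.7, 46.0 and 29.5 reads per 1000 reads of these markers in KO451, KO452 and KO457, against 20.02, 37.6 and 53.4 in WT453, WT454 and WT455. It thus varied as much within a group as between the groups also on that scale.

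Red pulp macrophage markers had a higher mean in knockout for 20 of 20 genes, with a median log2 difference of 1.18, and 0.52 without WT453. All knockout libraries lay above all wild-type libraries for 8 of the 20, against 9.54% of all tested genes, limma called 0, and 7 had an unadjusted p under 0.05. The summed level was 7018 to 12179 CPM in knockout spleens and 1967 to 7115 CPM in wild-type spleens, and Hmox1, which breaks down haem, had a log2 difference of 0.98 (SE 0.55), next to 0.93 (SE 0.53) for Vcam1. The member profiles closest to that list were those of Apol11b, at a distance of 0.77, Apol8, at 0.78, and Apol9b, at 0.79, all farther than the red cell list was from Apol11b and Apol8. Its part in the members' differences was not tested.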

How the data were processed

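Total spleen RNA of 3 Was knockout and 3 wild-type animals was made into libraries with an mRNA kit, per the labels' protocols. Per the submitters' processing notes, the build was GRCm38 and the tools were FastQC 0.11.5 with STAR 2.5.3a, StringTie 1.3.1c and DESeq, whose roles they leave out. Not given in the sources used here are how reads were counted and on which strand. The authors' deposited table holds 26452 genes, each with 6 log2 values (1 per library), both group means, the authors' log2 fold change, their p-value and their FDR. The deposited values are log2(normalized count + 1). Dividing by a step per library gave whole reads for 100% of values, within a tolerance of 0.001, and CPM and RPKM were computed from those reads. Knockout columns carry an unexplained suffix; separate handling of the groups and genotype cannot be told apart.

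Limma 3.58.1 in R 4.3.3, with an intensity trend, was fitted to the deposited log2 values of all 22081 genes with a mean normalized count of at least 1, with Benjamini-Hochberg adjustment and a threshold of 0.05. It was tested on simulated data. For genes with few reads, differences on this scale are too small. P-values measure the spread between the 3 libraries of a group.

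The members and the gene lists were chosen with earlier results of these data known. Named genes are Was, the members, other apolipoprotein L genes, the 2 nearest named genes on each side, up to 3 of the most abundant genes of a list and the 5 genes nearest in profile; a few of these are not reported here. Gene positions, exon lengths and shared 50-base stretches came from GENCODE vM21, which held 26404 of the gene identifiers, and promoters from RefSeq. Python 3.11.15 and Biopython 1.88 were used.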

Additional observations from a re-analysis of the deposited data

How the results depend on the processing

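No paired analysis was possible because the groups share no replicate numbers. Alternatives were pseudocounts of 0.1 and 0.01, quantile normalization, scaling by total reads, size factors without immunoglobulin and haemoglobin genes, limma voom on the whole reads, other filters, and each library left out in turn. Scaling by total reads moved the median of all genes to -0.17, against -0.03. Over these, log2 differences ranged from 3.30 to 4.54 for Apol11b, 2.01 to 3.16 for Apol8, 2.82 to 6.26 for Apol11a, 1.02 to 1.62 for Apol9a, 0.40 to 1.56 for Apol9b, 0.20 to 1 for Apol10b and -0.77 to 0.27 for Apol7c. The values of Apol10a (up to 12.28) and Apol6 (up to 3.15), with groups at 0 reads, followed the pseudocount. The count of members with all knockout libraries above all wild-type libraries was 5, and ranged from 4, with a filter at 1 CPM, to 6, without KO457 or WT455. Limma called 2 genes in all, 3 with scaling by total reads, 1 with voom, and 0 to 2 with a library left out. No rank of the members by level differed when the longest transcript gave the length.

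Signs of uncalled genes turned in some settings, and the cause was not tested. Quantile normalization gave -0.09 for Rpl8. With a library left out, the log2 difference ranged from -0.52 to 0.21 (without WT453) for Ifitm3, -0.51 to 0.15 (without WT454) for Parp14, -0.64 to 0.16 (without KO451) for Irf8, -0.99 to 0.16 (without WT454) for Ciita, -0.57 (without WT453) to 0.81 for Irf1, -0.17 (without WT453) to 0.33 for Rpl8 and -3.77 to 0.83 (without KO452) for Apol7b. List medians then ranged from -0.36 (without WT453) to 0.26 for the type I interferon genes, -0.57 (without WT453) to 0.14 (without KO451) for the interferon gamma genes and -0.19 to 0.24 for the dendritic cell markers. Depth limits Apol6, Apol9a and Apol9b, with 0 to 46 reads a library, for which small differences were not detectable. It also limits Apol10a and Apol11a, with 0 to 137 reads a library, and Apol10b, with 28 to 80.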

Other observations

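Genes of lipid efflux, another lipid-handling group, mostly had a higher mean in knockout, with values that moved with single libraries. Of 15 tested, 13 had a higher and 2 a lower mean in knockout, with a median log2 difference of 0.37, against -0.03 over all tested genes. Limma called 0 of the 15, and 3 had an unadjusted p under 0.05. Apoe, the apolipoprotein that macrophages secrete with cholesterol, had 223, 1011 and 633 CPM in KO451, KO452 and KO457, against 235, 434 and 396 CPM in WT453, WT454 and WT455, which overlapped (log2 difference 0.75, SE 0.51, and 0.32 without KO452 or 1.34 without KO451). Lrp1, a receptor for apolipoprotein E, had 165, 250 and 162 CPM in the knockout libraries, against 131, 147 and 170 CPM in the wild-type libraries (log2 difference 0.49, SE 0.21). Its groups overlapped in CPM but not in the deposited log2 values. There the lowest knockout value was 12.53, in KO457, and the highest wild-type value 12.40, in WT455. Abcg1, a cholesterol exporter, had a log2 difference of 0.37 (SE 0.31), which was 0.04 without WT453.

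Markers of other spleen cells showed both directions. All 10 B cell markers and all 10 T cell markers had a lower mean in knockout, with median log2 differences of -0.64 and -0.62. All knockout libraries lay below all wild-type libraries for 1 of 10 genes in each list, against 9.93% of all tested genes. Limma called 0 of either list, with 1 unadjusted p under 0.05 in each. Megakaryocyte markers had a higher mean in knockout for 8 of 10 genes, with a median of 0.78. All knockout libraries lay above all wild-type libraries for 3 of the 10, against 9.54% of all tested genes. Limma called 0 of the 10, and 2 had an unadjusted p under 0.05. Neutrophil markers were higher for 10 of 12, with a median of 0.49, although the highest summed level of all libraries was that of WT453. The groups overlapped for all 12, limma called 0, and 0 had an unadjusted p under 0.05. Plasmacytoid dendritic cell markers were split, 5 higher and 5 lower, with a median of 0.02, as were plasma cell markers, 4 and 4, with a median of -0.09.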
